A study of Arabidopsis thaliana with 24 samples.

Results

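Transcripts of 60 class III peroxidase loci were followed in roots of Arabidopsis thaliana seedlings that were exposed to isoxaben, an inhibitor of cellulose synthesis, on media of low or high potassium nitrate. The 60 loci are a named list of the family: the root hair genes RHS18 and RHS19, the endodermal gene PER64 and some reproductive members were left out of it. They stand among 32833 genes of the count table. A count was found for 59 of them, and 54 passed the filter on low counts and were tested together with all 20546 genes that passed. The loci without a test were AT1G24110, which had no count in any library, and AT4G17690, AT4G31760, AT5G47000, AT5G58390 and AT5G58400. Of the 54 tested loci, 47 lay above the filter's level of 0.506 CPM (counts scaled to library size) in every library of all 8 groups. The other 7 (PRX33, PRX52, PRX53, AT4G25980, AT5G19880, AT5G19890 and AT5G64110) passed through some groups only, and counts over the 47 are therefore given beside those over the 54.

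All plants were wild-type Col-0, and all roots were collected on day 6 after stratification. Medium held 6 mM or 60 mM KNO3, with 2.5 nM isoxaben or a mock addition. In the long-term arm, seedlings were on isoxaben or mock medium throughout. In the shift arm, seedlings were raised on mesh without isoxaben, and on day 5 they went over to plates with isoxaben or mock at an unchanged KNO3 concentration, so shift mock plants differ from long-term mock plants in mesh and transfer. Each of the 8 groups had 3 libraries of poly(A) RNA. Nothing in the labels says whether replicates came from separate plates or sowings, so p-values measure only the spread between these samples. Totals ran from 18902538 to 20519913 counts per library, at which 3 counts correspond to at most 0.167 CPM. Root identity markers summed to 171 to 213 CPM over the 24 libraries, and 20 photosynthesis markers summed to 176 to 857 CPM. Whether RNA of the 20 came from green tissue or from the roots themselves was not tested. Of these markers 9 of 20 fell with isoxaben in long-term 60 mM roots, from 532 to 750 CPM in mock to 176 to 668, 1 fell after the shift at 60 mM, and 0 were called at 6 mM. Their part in the peroxidase results was not tested.

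Class III peroxidases are secreted, haem-containing plant enzymes that act in the cell wall and apoplast. With hydrogen peroxide they oxidise phenolic substrates, which couples monolignols into lignin, helps to assemble suberin and crosslinks extensins, the hydroxyproline-rich wall glycoproteins. They can also generate reactive oxygen species, and members of the family have been tied both to wall stiffening and to wall loosening. Isoxaben acts on the cellulose synthase complexes of the primary wall, and loss of cellulose is a classical trigger of ectopic lignin and of wall integrity signalling.

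The catalytic signature of the family is a distal histidine that takes part in the cleavage of hydrogen peroxide, flanked by phenylalanine, aspartate and cysteine. Codons for Phe-His-Asp-Cys were found in the RefSeq TAIR10.1 coding sequences of 57 of the 60 loci. In AT2G39040 and AT5G39580 another residue stood before the histidine, and AT5G24070 lacked the run. Stretches of coding strand around the histidine codon (capitals) are shown for 5 loci on which the results turn, to show how far coding sequences of the family diverge around one shared site.
PRXR1: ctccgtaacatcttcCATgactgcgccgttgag
PRX52: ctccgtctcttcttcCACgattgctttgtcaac
PRX71: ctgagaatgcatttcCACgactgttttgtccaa
AT5G64110: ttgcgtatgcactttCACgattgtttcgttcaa
AT2G38390: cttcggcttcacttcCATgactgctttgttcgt
The histidine is codon 71 of PRXR1, 70 of PRX52, 75 of PRX71, 74 of AT5G64110 and 71 of AT2G38390. Among the 57 loci there were 54 distinct runs of this length. Over all 1770 pairs of the 60 coding sequences the median identity was 62.8%, with a range of 56.2% to 100%.

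Summed over the family, peroxidase transcripts changed little in total while single loci rose and fell by large factors. The sum was 9368 ± 319 CPM (SD, n = 3) in long-term 6 mM mock roots and 10585 ± 245 with isoxaben, ranges that did not overlap. At 60 mM it was 10144 ± 551 in mock and 9958 ± 1688 with isoxaben, and the 4 shift groups averaged 9058 to 9533 CPM. In the long-term 60 mM isoxaben group the libraries ran from 8116 to 11432 CPM, the widest range of any group. Per library the family took 0.816% to 1.07% of counts, and its 5 most counted loci supplied 47.9% to 56.0% of that.

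Per kilobase of exon, the most abundant locus was PRXR1, at 1165 ± 67.0 CPM per kb (SD, n = 3) in long-term 6 mM mock roots, and it ranked first in all 8 groups. Next in that group were AT3G32980 at 571 ± 23.2, AT2G37130 at 533 ± 17.8, AT3G01190 at 444 ± 12.7 and PRX34 at 434 ± 30.6 CPM per kb. The ranges of AT3G32980 and AT2G37130 overlapped, as did those of AT3G01190 and PRX34, so the order within these pairs was not separable. PRXR1 was between 1743 and 2595 CPM in all 24 libraries, and it passed the test in none of the 12 comparisons.

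**Figure D1:**
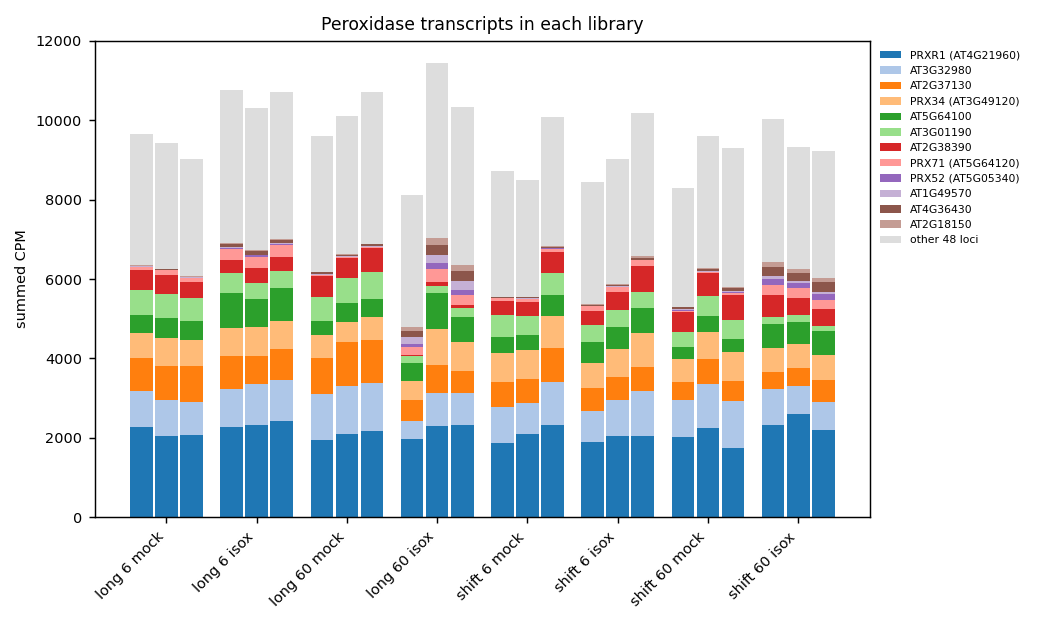
Summed CPM of the 60 peroxidase loci in each of the 24 libraries (bars, grouped by exposure, KNO3 and treatment), split into the most abundant loci and the rest. The height stays between 8116 and 11432 CPM, and PRXR1 (1743 to 2595 CPM) is the largest block of a single locus.

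Isoxaben changed a larger share of tested peroxidases than of all tested genes in all 4 settings, with the most changes in long-term 60 mM roots. Calls are adjusted p under 0.05 in edgeR's quasi-likelihood test with Benjamini-Hochberg adjustment over all 20546 genes. Long-term isoxaben at 60 mM KNO3 changed 41 of 54 loci (75.9%), 25 higher and 16 lower, against 31.9% of all genes (16% higher and 15.8% lower). Over the 47 loci above the filter's level throughout, the count was 35 (74.5%), 19 higher and 16 lower. Long-term at 6 mM it changed 20 loci (37.0%), 16 higher and 4 lower, against 5.69% of all genes (3.9% higher and 1.79% lower), and 17 of the 47.

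After the shift at 60 mM, isoxaben changed 26 loci (48.1%), 19 higher and 7 lower, against 12.9% of all genes (7.35% higher and 5.59% lower), and 21 of the 47. After the shift at 6 mM it changed 7 loci (13.0%), 3 higher and 4 lower, against 0.949% of all genes (0.628% higher and 0.321% lower), and all 7 are among the 47. This count was 4 without the third shift 6 mM isoxaben library. The median size of the isoxaben effect on the log2 scale in long-term 60 mM roots was 1.16 over the 54 loci and 0.18 over all genes. Its signed median was 0.25, since rises and falls were both common.

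**Figure D2:**
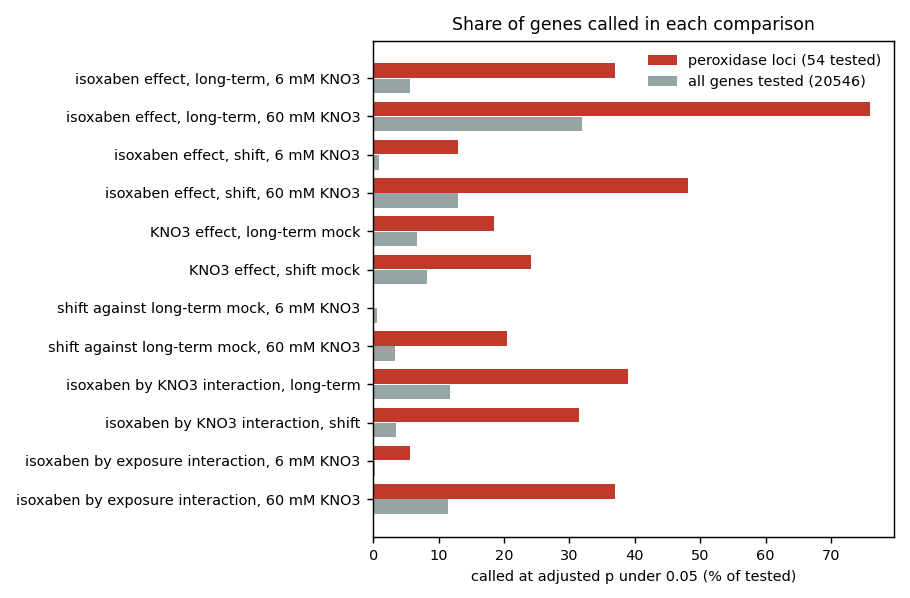
Percentage of tested genes called at adjusted p under 0.05 in each of the 12 comparisons, for the 54 peroxidase loci and for all 20546 genes (edgeR quasi-likelihood test). The peroxidase share exceeds the share of all genes in 11 comparisons, and is 0 for shift against long-term mock at 6 mM KNO3.

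The 4 isoxaben effects share no library, although they share 1 estimate of spread. In all, 43 loci were called in at least 1 of them, and 0 were called in opposite directions in different settings. These counts and the overlaps below were made for the family only, so no share over all genes stands beside them. With 75.9% of the 54 loci called long-term at 60 mM, part of the overlap with that setting is given by that share. All 20 loci called long-term at 6 mM were also called long-term at 60 mM with the same sign, which is 48.8% of the 41. All 7 of the shift at 6 mM (17.1% of the 41) and 24 of the 26 of the shift at 60 mM (58.5% of the 41) were called there too, with the same sign. The exceptions after the shift at 60 mM were AT2G18980, which fell by 0.52 on the log2 scale (SE 0.07, adjusted p = 1.68e-06), and PRX25, which rose by 0.60 (SE 0.15, adjusted p = 0.00603). Rises in all 4 settings were seen for AT1G34510, AT5G39580 and PRX71, and a fall in all 4 for AT5G15180.

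**Figure D3:**
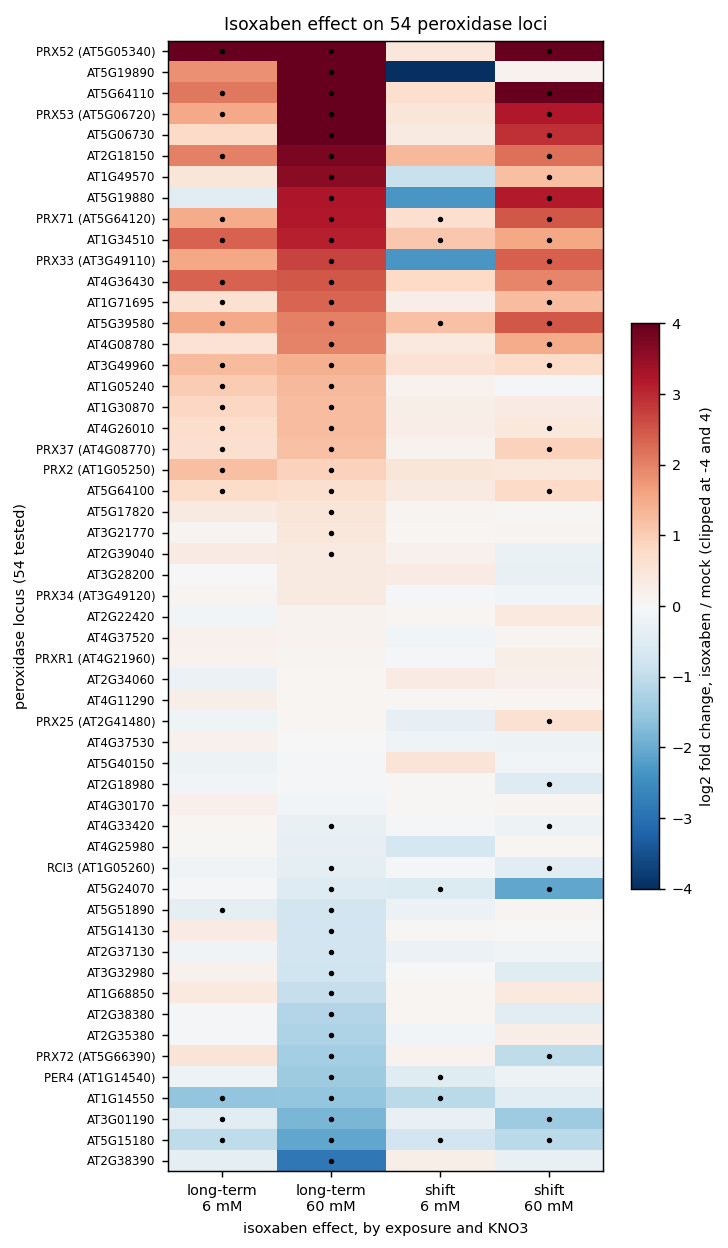
Log2 fold change, isoxaben over mock, of the 54 tested loci (rows) in the 4 settings (columns), with colours limited at 4 and called values marked. The long-term 60 mM column holds 25 loci called higher and 16 lower, and the shift 6 mM column holds 7 called in all.

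PRX52, which takes part in lignin formation in Arabidopsis stems, showed the largest rise. In long-term 6 mM mock roots it measured 0.155, 0.209 and 1.29 CPM, and with isoxaben 28.6, 31.2 and 22.4. In long-term 60 mM roots the mock libraries measured 0.960, 0.258 and 0.521 CPM and the isoxaben libraries 87.8, 153 and 107. In the shift at 60 mM they measured 1.13, 0.6 and 7.40 CPM in mock and 146, 123 and 142 with isoxaben. In these 3 settings every isoxaben library exceeded every mock library. The rise was 5.61 on the log2 scale long-term at 6 mM (SE 0.80, adjusted p = 0.000223), 7.62 at 60 mM (SE 0.71, adjusted p = 2.1e-07) and 5.49 after the shift at 60 mM (SE 0.55, adjusted p = 1.7e-06). After the shift at 6 mM the ranges overlapped, with 0.245, 3.28 and 5.42 CPM in mock and 3.88, 2.29 and 6.14 with isoxaben, and the difference of 0.45 (SE 0.74) did not pass the test. Per kilobase, PRX52 moved from rank 50 among the 60 loci in long-term 60 mM mock roots to rank 23 with isoxaben, and from rank 45 to 17 after the shift.

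PRX71 is known in Arabidopsis as an isoxaben-responsive peroxidase that restrains growth and cell size. Its libraries measured 93.2, 111 and 103 CPM in long-term 6 mM mock roots and 278, 284 and 306 with isoxaben. At 60 mM the mock libraries measured 28.4, 25.8 and 30.8 CPM and the isoxaben libraries 200, 332 and 259. The isoxaben libraries of both KNO3 levels overlapped, while the mock libraries were lower at 60 mM. After the shift it went from 78.1, 75.4 and 94.1 CPM to 122, 126 and 144 at 6 mM, and from 38.9, 40.4 and 53.9 to 253, 246 and 241 at 60 mM. The ranges did not overlap in any of the 4 settings. Its rise was 2.83-fold long-term at 6 mM (adjusted p = 1.83e-06), 9.29-fold at 60 mM (adjusted p = 9.94e-12), 1.58-fold after the shift at 6 mM (adjusted p = 0.0327) and 5.56-fold after the shift at 60 mM (adjusted p = 9.76e-10). The call of the shift at 6 mM was lost without any 1 of 5 of its 6 libraries, and without the low-count filter, with adjusted p up to 0.172 over its alternatives.

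AT5G64110 is the next gene to PRX71 on chromosome 5 and also rose, at a lower level: per kilobase of exon it averaged 5.35 CPM in long-term 60 mM isoxaben roots, where PRX71 averaged 197. It measured 0.202, 0.310 and 0.312 CPM in long-term 60 mM mock roots and 6.15, 9.84 and 7.03 with isoxaben. After the shift at 60 mM it went from 0.246, 0.250 and 0.296 CPM to 7.03, 5.92 and 7.30. These are rises of 4.77 (SE 0.25, adjusted p = 2.68e-14) and 4.64 (SE 0.25, adjusted p = 2.58e-13) on the log2 scale. Long-term at 6 mM it rose 4.34-fold (adjusted p = 1.61e-08).

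PRX53 and its neighbour AT5G06730 rose together at 60 mM. PRX53 has been linked to cell elongation and to responses to nematodes. It measured 1.06, 0.362 and 0.417 CPM in long-term 60 mM mock roots and 10.6, 20.9 and 15.9 with isoxaben. AT5G06730 measured 2.58, 1.71 and 2.71 CPM and 45.5, 57.6 and 56.7. Neither pair of groups overlapped, and the rises were 25.3-fold for PRX53 (adjusted p = 5.15e-09) and 22.8-fold for AT5G06730 (adjusted p = 5.09e-12). After the shift at 60 mM they were 9.27-fold for PRX53 (adjusted p = 4.49e-07) and 7.50-fold for AT5G06730 (adjusted p = 1.06e-08). Long-term at 6 mM, PRX53 rose 2.84-fold (adjusted p = 0.0364), whereas AT5G06730 differed by 0.77 on the log2 scale and did not pass the test.

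AT5G19890 rose in 1 setting. Its libraries measured 0.859, 0.517 and 1.46 CPM in long-term 60 mM mock roots and 50.5, 78.5 and 89.4 with isoxaben, a 76.7-fold rise (SE 0.78 on the log2 scale, adjusted p = 6.22e-06). In shift roots it was erratic, with 0, 4.01 and 3.19 CPM in the 6 mM mock libraries and 0.0985, 0.150 and 7.20 in those at 60 mM. With isoxaben after the shift at 60 mM the libraries measured 3.19, 2.98 and 2.10 CPM, inside the range of the mock libraries. Its tandem neighbour AT5G19880 stayed below 3.15 CPM in every library. It rose 9.39-fold long-term (adjusted p = 2.35e-07) and 9.04-fold after the shift (adjusted p = 1.92e-07), both at 60 mM.

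Further rises came from AT2G18150, AT4G36430, AT1G34510, AT5G39580, AT1G49570 and AT1G71695. AT2G18150 went from 13.8, 8.84 and 9.27 CPM to 107, 168 and 162 in long-term 60 mM roots, a 13.7-fold rise (adjusted p = 1.8e-08). AT4G36430 rose 5.17-fold at 6 mM (adjusted p = 1.97e-06) and 5.57-fold at 60 mM (adjusted p = 3.82e-08) in the long-term arm. Both also rose after the shift at 60 mM.
AT1G34510 rose in all 4 settings, from 2.12-fold after the shift at 6 mM (adjusted p = 0.00355) to 8.57-fold long-term at 60 mM (adjusted p = 7.94e-12). AT5G39580 rose between 2.24-fold after the shift at 6 mM (adjusted p = 0.00263) and 5.55-fold after the shift at 60 mM (adjusted p = 1.36e-09). AT1G49570 was 18.8, 12.9 and 18.4 CPM in long-term 60 mM mock roots and 173, 202 and 236 with isoxaben, a 12.2-fold rise (adjusted p = 8.42e-10), and it was not called at 6 mM in either arm. PRX37, whose overexpression dwarfs Arabidopsis, rose 1.57-fold long-term at 6 mM (adjusted p = 0.00275) and 2.23-fold at 60 mM (adjusted p = 2.61e-07).

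**Figure D4:**
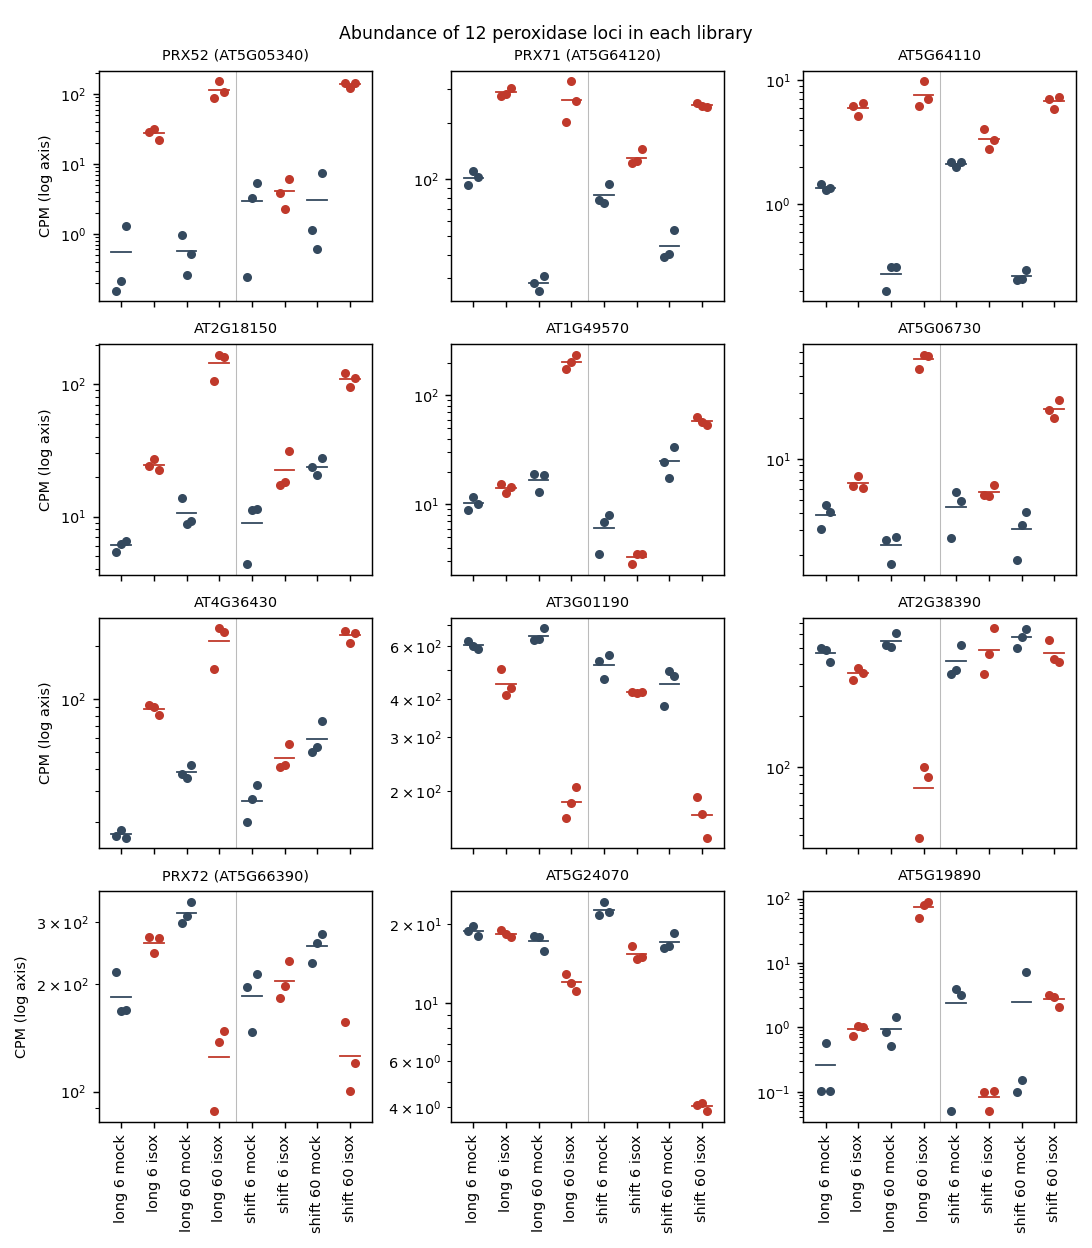
CPM of 12 peroxidase loci in each of the 24 libraries (points; log axis) by exposure, KNO3 and treatment, with values under 0.05 CPM, including a count of 0 for AT5G19890, drawn at 0.05. PRX52 lies between 87.8 and 153 CPM in the 6 isoxaben libraries at 60 mM KNO3, and AT2G38390 is low only in long-term 60 mM isoxaben roots (38.6 to 99.9 CPM).

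Among called loci, the largest fall was that of AT2G38390. It measured 520, 502 and 609 CPM in long-term 60 mM mock roots and 38.6, 99.9 and 88.0 with isoxaben, a 7.21-fold fall (SE 0.29 on the log2 scale, adjusted p = 5.72e-07). The groups were far apart. In the shift arm at 60 mM the same locus measured 501, 574 and 646 CPM in mock and 555, 430 and 414 with isoxaben, which overlapped. Per kilobase it went from rank 5 of 60 to rank 29 in long-term 60 mM roots. Its tandem neighbour AT2G38380 fell 2.24-fold in that setting (adjusted p = 0.00032), from 364, 342 and 411 CPM to 107, 210 and 182.

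AT3G01190 fell with isoxaben at both KNO3 levels in long-term roots, and at 60 mM after the shift. In long-term roots it went from 621, 599 and 587 CPM to 503, 412 and 436 at 6 mM, and from 627, 632 and 685 to 164, 182 and 206 at 60 mM. After the shift at 60 mM it went from 380, 494 and 477 CPM to 191, 168 and 141. No ranges overlapped, and the falls were 1.34-fold (adjusted p = 0.0148), 3.52-fold (adjusted p = 3.6e-12) and 2.71-fold (adjusted p = 7.69e-10) in that order. The first of them was lost when the first long-term 6 mM mock library or the second or the third isoxaben library was left out, with adjusted p up to 0.0891. After the shift at 6 mM AT3G01190 measured 537, 466 and 558 CPM in mock and 424, 421 and 422 with isoxaben, and was not called.

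AT5G15180 fell in all 4 settings, by 4.20-fold long-term at 60 mM (adjusted p = 6.51e-09), 2.03-fold long-term at 6 mM (adjusted p = 0.000393), 2.13-fold after the shift at 60 mM (adjusted p = 0.000111) and 1.71-fold after the shift at 6 mM (adjusted p = 0.0197). The last was lost without the third shift 6 mM mock library or the first or the third isoxaben library, and when only these groups were fitted, with adjusted p up to 0.218 over its alternatives. AT1G14550 and its neighbour PER4 fell by 2.94-fold (adjusted p = 9.73e-06) and 2.67-fold (adjusted p = 1.48e-08) long-term at 60 mM. At 6 mM long-term AT1G14550 fell 3.01-fold (adjusted p = 9.3e-06), while PER4 differed by 0.21 on the log2 scale and was not called. PER4 was called lower after the shift at 6 mM (adjusted p = 0.0478), a call lost without any 1 of its 6 libraries, with RLE size factors and without the low-count filter, with adjusted p up to 0.194.

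AT5G24070, the locus without the Phe-His-Asp-Cys run, fell most after the short exposure. It measured 16.2, 16.5 and 18.5 CPM in shift 60 mM mock roots and 4.09, 4.14 and 3.86 with isoxaben, a 4.23-fold fall (SE 0.10 on the log2 scale, adjusted p = 1.39e-14). In long-term 60 mM roots it went from 17.9, 17.8 and 15.8 CPM to 12.9, 12.0 and 11.1, a 1.43-fold fall (adjusted p = 1.48e-05). Long-term at 6 mM the groups overlapped, between 17.8 and 19.7 CPM.

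The next counts were made for the family only, so no share over all genes stands beside them. Of loci called in 1 setting, most were called in long-term 60 mM roots, which had the most calls (41 of 54). There, 7 loci were called lower that were called in no other isoxaben comparison (AT1G68850, AT2G35380, AT2G37130, AT2G38380, AT2G38390, AT3G32980 and AT5G14130), and 4 were called higher (AT2G39040, AT3G21770, AT5G17820 and AT5G19890). AT5G14130 overlaps an antisense gene in its exons, and whether counting used strand is not given in the sources used here. Its reads and those of its partner therefore cannot be told apart, which holds also for AT1G30870, AT4G08780, AT4G25980, AT4G26010, AT4G33420, AT5G40150 and AT5G51890. None of the 4 isoxaben effects was called for 11 tested loci, among them PRXR1 and PRX34, and 8 were called in none of the 12 comparisons.

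The isoxaben effect differed with the KNO3 level for 21 loci in long-term roots (38.9%, against 11.8% of all genes) and for 17 in shift roots (31.5%, against 3.5%). Of the 47 loci above the filter's level throughout, 18 and 13 were called. Here the tested quantity is the effect at 60 mM minus the effect at 6 mM on the log2 scale, and both effects enter with their own mock libraries. In long-term roots the effect was more positive at 60 mM for 9 loci and more negative for 12, against 5.45% and 6.36% of all genes. In shift roots it was more positive for 13 and more negative for 4, against 2.14% and 1.37%. AT5G06730 differed by 3.74 long-term (SE 0.36, adjusted p = 5.34e-07) and AT1G71695 by 1.73 (SE 0.16, adjusted p = 1.12e-07).
AT1G71695 went from 23.8, 24.2 and 24.3 CPM to 39.3, 35.6 and 34.3 at 6 mM and from 17.9, 19.8 and 21.5 to 83.1, 127 and 86.6 at 60 mM. In the other direction AT3G01190 differed by -1.40 (SE 0.15, adjusted p = 6.26e-07) and AT2G35380 by -1.21 (SE 0.13, adjusted p = 8.28e-07). AT2G35380 measured 110, 96.4 and 89.8 CPM in mock and 102, 97.1 and 88.7 with isoxaben at 6 mM, against 102, 95.7 and 98.3 and 37.6, 43.3 and 44.0 at 60 mM.
PRX52 differed by 5.04 after the shift (SE 0.99, adjusted p = 0.0068), and its long-term difference of 2.01 was not called. PRX71 differed by 1.72 long-term (adjusted p = 1.54e-05) and 1.81 after the shift (adjusted p = 3.55e-05). Its mock level, which enters these differences, was itself lower at 60 mM. AT5G64110 differed by 3.98 after the shift (adjusted p = 5.67e-08), AT5G24070 by -1.52 (adjusted p = 5.17e-08) and AT3G01190 by -1.14 (adjusted p = 4.37e-05).

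The isoxaben effect differed with exposure for more loci at 60 mM than at 6 mM KNO3. The long-term effect differed from the shift effect for 20 loci at 60 mM (37.0%, against 11.5% of all genes), 12 more positive and 8 more negative, against 5.68% and 5.86% of all genes, and 19 of the 47 were called. AT1G49570 differed by 2.39 (SE 0.30, adjusted p = 4.47e-05), AT1G71695 by 1.10 (SE 0.16, adjusted p = 5.04e-05) and AT5G24070 by 1.56 (SE 0.13, adjusted p = 4.5e-09), the last because it fell less long-term. AT2G35380 differed by -1.50 (SE 0.13, adjusted p = 4.6e-08) and AT2G38390 by -2.55 (SE 0.39, adjusted p = 0.000287). PRX52, by contrast, had 7.62 long-term and 5.49 after the shift, a difference that was not called.
At 6 mM, 3 loci were called (5.56%, against 0.263% of all genes), all 3 more positive (0.175% of all genes) and 0 more negative (0.0876%), and 2 of them are among the 47. They were AT5G64110 at 1.46 (adjusted p = 0.0131), AT4G36430 at 1.56 (adjusted p = 0.0399) and AT5G24070 at 0.52 (adjusted p = 0.0399). The count was 0 without the third long-term 6 mM mock library, where adjusted p for AT5G64110 was 0.051. It was 1 without any other long-term 6 mM library, the third shift mock library or the second shift isoxaben library. Adjusted p over the alternatives reached 0.126 for AT4G36430 and 0.132 for AT5G24070.

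Loci grouped by known role differed in how far they moved together. The lists were chosen with earlier results of these data known, so counts over them are descriptions. They need not hold every locus with such a role, and counts over them depend on the loci chosen. Of 7 listed loci tied to lignin formation (PRX2, PRX25, PRX52, PRX72, AT2G22420, AT4G33420 and AT5G51890), 2 rose and 3 fell in long-term 60 mM roots. Their median was 0.07 on the log2 scale against 0.01 for all genes, of which 16% rose and 15.8% fell. Among these rises is that of PRX2, whose counts are uncertain because AT1G05240 has the same coding sequence. The other rise was that of PRX52, which passed the low-count filter through some groups only. Among the falls, AT4G33420 and AT5G51890 overlap antisense genes, so their reads cannot be told apart from those of the partners. In the long-term arm at 6 mM 2 rose and 1 fell, PRX2 again among the rises (3.9% of all genes rose and 1.79% fell), after the shift at 60 mM 2 rose and 2 fell (7.35% and 5.59%), and after the shift at 6 mM 0 did either. PRX72, which polymerises lignin in stems and in the root endodermis, measured 298, 312 and 342 CPM in long-term 60 mM mock roots and 88.1, 138 and 148 with isoxaben. This was a 2.54-fold fall (SE 0.19 on the log2 scale, adjusted p = 2.12e-05), opposite to PRX52 in the same libraries.
PRX72 also fell 2.04-fold after the shift at 60 mM (adjusted p = 0.000942). Long-term at 6 mM it measured 216, 168 and 169 CPM in mock and 271, 245 and 270 with isoxaben, which did not pass the test. Its isoxaben effect was lower at 60 mM than at 6 mM in long-term roots (log2 difference -1.85, SE 0.27, adjusted p = 0.000133).

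Of 3 peroxidases that act at the endodermal barrier with PER64 (RCI3, PRX72 and AT4G11290), 2 fell in each arm at 60 mM, with medians of -0.36 long-term and -0.42 after the shift on the log2 scale, and 0 were called at 6 mM. Of all genes, 15.8% fell long-term and 5.59% after the shift at 60 mM. RCI3 fell by 0.36 long-term (adjusted p = 0.000604) and 0.43 after the shift (adjusted p = 0.000274) on the log2 scale. PER64 itself, outside the 60, had log2 changes of -1.06 (adjusted p = 0.00021) and -0.84 (adjusted p = 0.00483) at 60 mM and was not called at 6 mM. AT1G44970, another endodermal peroxidase outside the 60, rose by 1.04 long-term (adjusted p = 0.000482) and 0.75 after the shift (adjusted p = 0.043) at 6 mM, and its values of -0.30 and -0.10 at 60 mM were not called. Markers of the Casparian strip endodermis moved in the same settings: 9 of 9 fell in long-term 60 mM roots, where their summed level went from 821 to 943 CPM in mock to 330 to 485 with isoxaben, and 7 of 9 fell after the shift, from 566 to 697 CPM to 293 to 416. Suberin markers fell in 12 of 13 long-term at 60 mM and 1 of 13 after the shift. Xylem markers fell in 13 of 13 long-term at 60 mM, from 724 to 818 CPM to 372 to 402, in 3 of 13 long-term at 6 mM, and in 0 after the shift at either level. Their part in the falls of the peroxidases was not tested. In bulk roots, fewer cells of a type and less RNA per cell cannot be told apart.

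All 4 listed peroxidases of root hairs (AT1G05240, AT4G26010, AT5G39580 and AT5G64100) rose in both long-term settings, 3 rose after the shift at 60 mM and 1 after the shift at 6 mM. Of all genes 3.9% and 16% rose long-term at 6 and 60 mM, and 0.628% and 7.35% after the shift. The counts of AT1G05240 are uncertain, since PRX2 has the same coding sequence. AT4G26010 overlaps an antisense gene in its exons, so its reads and those of its partner cannot be told apart. AT5G39580 and AT5G64100 have neither limit. For the 4 loci the median was 1.26 on the log2 scale long-term at 60 mM. AT4G26010 went from 97.8, 94.8 and 110 CPM to 228, 248 and 236 long-term at 60 mM, a 2.35-fold rise (adjusted p = 3.69e-07). AT5G64100 went from 344, 482 and 451 CPM to 454, 903 and 633, ranges that overlapped, for a 1.56-fold rise (adjusted p = 0.0172). The root hair genes RHS18 and RHS19, outside the 60, rose by 2.7 (adjusted p = 1.29e-10) and 1.86 (adjusted p = 6.03e-08) on the log2 scale in that setting. Root hair markers without peroxidases rose in 8 of 13 long-term at 6 mM and in 12 of 13 at 60 mM, where their sum went from 741 to 878 CPM to 1890 to 2971. After the shift 0 rose and 1 fell at 6 mM, and 3 rose and 1 fell at 60 mM. Their part in these rises was not tested.

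Among 3 loci tied to growth control and wall stress, PRX37, PRX53 and PRX71, 3 rose in each long-term setting and after the shift at 60 mM, and 1 rose after the shift at 6 mM, with a median of 3.22 on the log2 scale long-term at 60 mM. Of all genes 3.9% and 16% rose long-term at 6 and 60 mM, and 7.35% and 0.628% after the shift at 60 and 6 mM. PRX71 was already known to respond to isoxaben, and PRX53 passed the low-count filter through some groups only. The counts therefore only describe these 3 loci. PRX34, a source of the apoplastic oxidative burst in immunity, measured 484 to 897 CPM in long-term 60 mM isoxaben roots and 506 to 590 in mock and was not called in any isoxaben comparison. Its close relative PRX33 was at or under 0.592 CPM in every library but 4, all with isoxaben at 60 mM, and its calls long-term (adjusted p = 0.0135) and after the shift (adjusted p = 0.021) rest on few counts. Among the 60, AT4G11290 and AT5G17820 are listed as repressed by the bHLH factor UPB1 at the border between division and elongation. UPB1 targets outside the 60 were not listed, so these loci do not stand for all of its targets. AT5G17820 rose 1.38-fold long-term at 60 mM (adjusted p = 0.0054) and AT4G11290 was called in no isoxaben comparison. UPB1 was also higher long-term at 60 mM, by 0.69 on the log2 scale (adjusted p = 2.96e-06). AT4G16270, a further peroxidase outside the 60, fell at 60 mM and was not called at 6 mM. Its log2 changes at 60 mM were -0.54 long-term (adjusted p = 0.000176) and -0.36 after the shift (adjusted p = 0.0201).

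Peroxidases also differed between KNO3 levels without isoxaben. KNO3 supplies potassium together with nitrate, so which of them a difference follows cannot be told apart. In long-term mock roots 60 mM against 6 mM changed 10 loci (18.5%, against 6.77% of all genes), 4 higher (2.83% of all genes) and 6 lower (3.94%). In shift mock roots it changed 13 (24.1%, against 8.2%), 6 higher (3.32% of all genes) and 7 lower (4.88%). Of the 47, 9 and 12 were called. These comparisons share mock libraries with the isoxaben effects above. PRX71 was 3.61-fold lower at 60 mM in long-term mock roots (adjusted p = 7.26e-07) and 1.86-fold lower in shift mock roots (adjusted p = 0.000726). AT5G64110 was 4.89-fold lower (adjusted p = 3.76e-05) and 7.90-fold lower (adjusted p = 2.27e-07), and AT4G08780 2.86-fold lower (adjusted p = 0.000312) and 1.83-fold lower (adjusted p = 0.0158). AT4G36430 was 2.26-fold higher in both arms (adjusted p = 0.00301 and 0.00154), the second lost with adjusted p = 0.055 when only the groups compared were fitted.
The long-term count was 6 without the first 6 mM mock library, 5 without the third and 6 without the second 60 mM mock library, and the shift count was 8 without the second 6 mM mock library. Calls of AT4G08780, AT1G14550, AT5G51890 and AT2G34060 in shift roots were lost without 1 or more single libraries, with adjusted p up to 0.16. In long-term roots PRX72 and AT1G14550 were lost without any 1 of 3 libraries and PER4 without any 1 of 4, with adjusted p up to 0.158. PRX37 and RCI3 in long-term roots were lost without any 1 of the 6 libraries, with adjusted p up to 0.117 and 0.164. PRX37 in shift roots was likewise lost without any 1 of its 6 libraries, with adjusted p up to 0.206. AT2G34060, called in no isoxaben comparison, was 1.64-fold lower at 60 mM in long-term mock roots (adjusted p = 3.59e-05). AT1G49570 measured 3.48, 6.89 and 7.94 CPM in shift 6 mM mock roots and 24.5, 17.3 and 33.6 at 60 mM, a 4.11-fold rise (adjusted p = 7.17e-05) that was lost with adjusted p = 0.0593 when only these groups were fitted.

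Mesh and transfer together separate shift mock from long-term mock roots, and which of them a difference follows cannot be told apart. At 6 mM KNO3, 0 of 54 loci were called by edgeR's quasi-likelihood test, against 0.642% of all genes (0.389% higher and 0.253% lower), with 0 by DESeq2. At an unadjusted p under 0.05 there were 18 of the 54 and 1764 of all 20546 genes. At 60 mM 11 were called (20.4%, against 3.3%), 4 higher (1.46% of all genes) and 7 lower (1.85%), and all 11 are among the 47. The count at 60 mM was 6 and 5 without the second or the third long-term mock library, and 7 and 6 without the first or the third shift mock library. AT2G37130 was 898, 1111 and 1080 CPM in long-term mock roots at 60 mM and 448, 643 and 500 in shift mock roots, 1.94-fold lower (adjusted p = 0.00119). AT5G15180 was 1.89-fold lower (adjusted p = 0.00192) and AT4G33420 1.25-fold higher (adjusted p = 0.00305).

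Several members lie side by side on a chromosome, and neighbours did not always move together. PRX2 and AT1G05240 have identical coding sequences over their aligned 978 bases. Every 50-base window of PRX2's exons recurs elsewhere in the genome on either strand, as do 58.9% of those of AT1G05240. Their counts are therefore uncertain, and so are their calls. For AT2G38380 and AT2G38390 the coding identity is 90.6%, and their falls long-term at 60 mM were 1.17 and 2.85 on the log2 scale. PRX37 and AT4G08780, at 93.8%, rose there by 1.16 and 2.00. In long-term mock roots, however, PRX37 was higher at 60 mM than at 6 mM while AT4G08780 was lower. That call of PRX37 was lost without any 1 of its 6 libraries, and AT4G08780 overlaps an antisense gene in its exons. AT5G64100, AT5G64110 and PRX71 lie in a row with identities of 71.5% and 66.9%. With isoxaben long-term at 60 mM they rose by 0.64, 4.77 and 3.22. PRX33 and PRX34, at 90.7%, averaged 0.606 and 463 CPM per kb in long-term 60 mM isoxaben roots, and AT4G37520 and AT4G37530, at 92.4%, were not called in any isoxaben comparison. The unlike neighbours AT1G05260 (RCI3) and PRX2, at 61.7%, were called in opposite directions long-term at 60 mM.

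**Figure D5:**
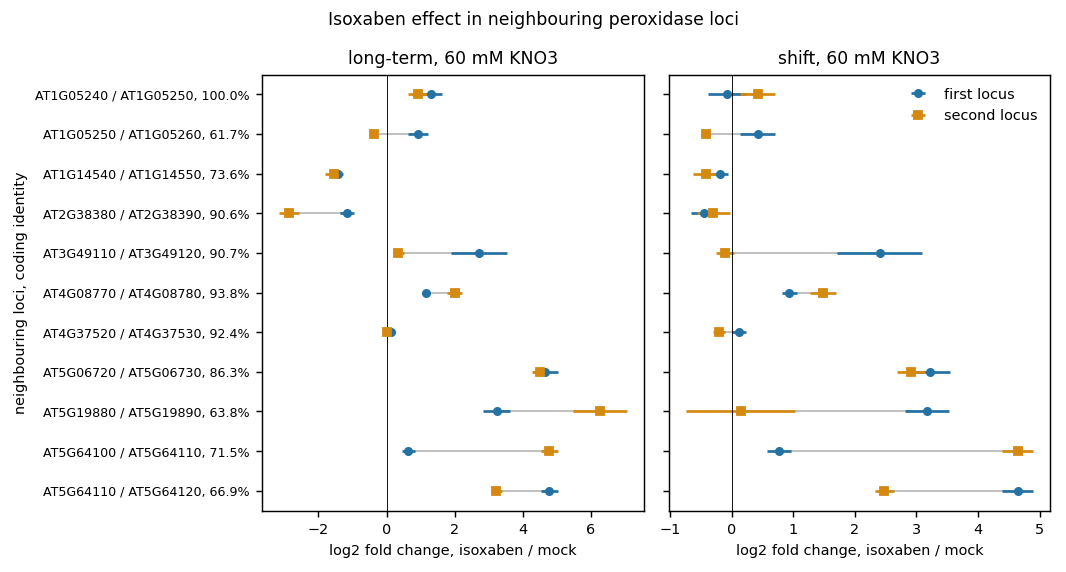
Log2 fold change, isoxaben over mock, of both loci of each neighbouring pair (points; bars are SE), with the coding identity of the pair beside its name, in long-term and in shift roots at 60 mM KNO3. AT5G64110 and PRX71 both rise at 60 mM, and AT2G38380 and AT2G38390 both fall in long-term 60 mM roots.

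Promoters of 3 loci with large changes in opposite directions are shown from RefSeq TAIR10.1, the 250 bases before the annotated start read 5′ to 3′ on the gene's strand. Capitals mark TTGAC on either strand, the core of the W-box that WRKY factors bind. PRX52 lies at chr5:1580876-1581125 (minus strand), PRX71 at chr5:25661008-25661257 (minus strand) and AT2G38390 at chr2:16079429-16079678 (plus strand).
PRX52: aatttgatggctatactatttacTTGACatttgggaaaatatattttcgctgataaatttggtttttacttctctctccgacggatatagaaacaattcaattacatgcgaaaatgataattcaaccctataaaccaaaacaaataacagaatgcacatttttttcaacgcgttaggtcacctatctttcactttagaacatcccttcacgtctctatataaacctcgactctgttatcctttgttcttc
PRX71: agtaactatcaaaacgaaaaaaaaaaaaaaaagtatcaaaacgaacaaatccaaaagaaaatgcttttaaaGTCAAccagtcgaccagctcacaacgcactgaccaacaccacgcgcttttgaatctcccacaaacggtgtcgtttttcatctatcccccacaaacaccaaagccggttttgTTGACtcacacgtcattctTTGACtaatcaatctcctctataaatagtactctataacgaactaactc
AT2G38390: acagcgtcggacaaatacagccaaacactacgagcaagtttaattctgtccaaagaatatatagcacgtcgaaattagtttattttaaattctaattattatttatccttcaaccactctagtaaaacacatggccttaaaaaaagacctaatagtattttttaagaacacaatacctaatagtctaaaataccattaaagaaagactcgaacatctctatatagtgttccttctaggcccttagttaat
The PRX71 window holds 3 matches, PRX52 holds 1 and AT2G38390 holds 0. Over the family 26 of 60 windows (43.3%) hold TTGAC on at least 1 strand, against 44.9% of 27443 promoters of the same length. The longer forms, which contain the core, were in 10.0% (TTGACC) and 21.7% (TTGACT) of the family and in 12.2% and 19.1% of all promoters. The lignin-linked AC element ACCAACC was in 3.33% of the family and 2.69% of all, ACCTACC in 0 of 60 and 1.16% of all, and the G-box CACGTG in 3.33% and 6.49%. A match describes the letters in the window and is not a binding site.

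Genes that make or remove the peroxidases' oxidant, and one group of their substrates, were counted beside them. Of 16 tested extensins, 13 rose long-term at 60 mM, 4 long-term at 6 mM, 2 after the shift at 60 mM and 0 after the shift at 6 mM, and 0 fell in any. Their median was 1.73 on the log2 scale long-term at 60 mM. The extensin EXT12 rose by 4.77 on the log2 scale (SE 0.42, adjusted p = 1.01e-07) and EXT4 by 3.11 (SE 0.43, adjusted p = 1.91e-05) long-term at 60 mM. Extensins are repetitive and alike, so reads may be shared between them. Among 8 tested NADPH oxidases, which supply apoplastic superoxide, 5 rose and 1 fell in that setting, RBOHD by 0.77 (adjusted p = 2.08e-05) and RBOHA by -0.69 (adjusted p = 0.000465). Of the oxidases 1 rose and 1 fell long-term at 6 mM, after the shift at 60 mM 1 rose and 2 fell, and after the shift at 6 mM 0 were called. Of 7 superoxide dismutases 0 rose and 2 fell there, CSD1 by 0.79 (adjusted p = 1.53e-07) and CSD2 by 0.71 (adjusted p = 9.63e-07). Both rose long-term at 6 mM, by 0.90 (adjusted p = 3.09e-07) and 0.40 (adjusted p = 0.00661), 1 other dismutase fell, and after the shift 0 were called. Of 10 tested catalases and ascorbate peroxidases 0 rose and 4 fell long-term at 60 mM, with CAT2 at -0.77 (adjusted p = 1.42e-06), 1 fell after the shift at 60 mM and 0 were called at 6 mM. In long-term 60 mM roots 16% of all genes rose and 15.8% fell. The shares of all genes were 3.9% and 1.79% long-term at 6 mM. After the shift they were 7.35% and 5.59% at 60 mM, and 0.628% and 0.321% at 6 mM.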

How the data were processed

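Poly(A) RNA from roots was measured in 24 libraries, 3 in each of 8 groups set from the sample titles and treatment labels. The table used holds counts of reads per gene, deposited by the authors without normalization. Per the submitters' processing notes, STAR 2.7.9a, DESeq2 1.32.0 and the TAIR10 build were used. The annotation and the strand setting of the counting are not given in the sources used here. A deposited table of normalized values was not used.

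All libraries were fitted in 1 model of 8 group means with edgeR 4.0.16 (quasi-likelihood, robust, TMM factors of 0.9385 to 1.035) in R 4.3.3 with limma 3.58.1. The low-count filter kept 20546 of 32833 genes, which hold 99.96% of counts. The common biological coefficient of variation was 7.66%, with 16 residual degrees of freedom. CPM are counts scaled by TMM library size. In 12 contrasts, p-values were adjusted over all tested genes (Benjamini-Hochberg), with calls at 0.05. The fit was tested on simulated counts first. Loci were named where a mean reached 1 CPM and the change was among the 6 largest rises or falls of a comparison, or the 4 smallest adjusted p-values of an interaction. Loci of the role lists and neighbouring loci were named as descriptions, and so were single loci in lists of calls. The 60 loci, the gene lists and the tests were chosen with earlier results of these data known.

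Replicate numbers are shared between groups, and they were not treated as pairs: in 0 of 28 pairs of groups did all same-numbered libraries correlate above 0.1. The long-term isoxaben groups at 6 and 60 mM gave 0.15, 0.27 and 0.089. The labels do not say how replicates were made, so this cutoff cannot exclude pairing. No 2 replicates differed by less than sampling noise. Alternatives were DESeq2 1.42.0, relative log expression (RLE) size factors, no filter, a fit of only the groups compared, a replicate block and leaving out each library. Lengths, neighbours, coding identities and promoters come from RefSeq TAIR10.1, read with Python 3.11.15 and Biopython 1.88.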

Additional observations from a re-analysis of the deposited data

Results flagged for a closer look

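Loci are listed here because the test of a difference between 2 isoxaben effects was passed. Values are differences of log2 fold changes from edgeR's quasi-likelihood test.

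The effect at 60 mM minus that at 6 mM KNO3 in long-term roots was 1.73 for AT1G71695, 3.74 for AT5G06730, -1.40 for AT3G01190 and -1.21 for AT2G35380. In shift roots it was 3.98 for AT5G64110, 1.81 for PRX71 (AT5G64120), -1.14 for AT3G01190 and -1.52 for AT5G24070. The long-term effect minus the shift effect at 6 mM KNO3 was 1.46 for AT5G64110, 1.56 for AT4G36430 and 0.52 for AT5G24070. At 60 mM it was 1.56 for AT5G24070, -1.50 for AT2G35380, 2.39 for AT1G49570 and 1.10 for AT1G71695. AT5G24070 was the one locus of these whose difference was called for both KNO3 levels in the exposure comparison, and it fell with isoxaben more after the shift than in long-term roots.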

How the results depend on the processing

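Fitting only the groups compared moved the number of peroxidases called for isoxaben in long-term 6 mM roots from 20 to 33, for KNO3 in long-term mock roots from 10 to 25, and for the exposure comparison at 6 mM from 3 to 6. DESeq2 also gave 6 for the last. The cause was not tested. Every other count under these settings, RLE size factors and no filter was within 1.5 times its main value.

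Leaving out single libraries gave counts of 15 to 18 for isoxaben long-term at 6 mM, 37 to 43 at 60 mM, 4 to 5 after the shift at 6 mM and 21 to 27 at 60 mM. They gave 5 to 8 for KNO3 in long-term mock roots, 8 to 12 in shift mock roots, 0 for shift against long-term mock at 6 mM and 5 to 11 at 60 mM. For the differences of isoxaben effects they gave 19 to 25 and 14 to 18 between KNO3 levels in long-term and shift roots, and 0 to 3 and 18 to 25 between exposures at 6 and 60 mM.

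With the replicate block the counts were 21, 41, 7 and 26 for the isoxaben effects (long-term 6 and 60 mM, shift 6 and 60 mM), 10 and 13 for KNO3, 0 and 12 for shift against long-term mock, and 22, 17, 4 and 22 for the differences. Pairing by number was not clear: correlations of same-numbered libraries ran from -0.15 to 0.27, and 8 of 24 libraries correlated best with their own number.

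Over 88 results of named loci and 1058 alternative fits, 941 kept direction and call, 117 lost the call and 0 reversed. The losses fell on 27 results. Loci near 3 counts per library, such as PRX33, are limited by depth.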
